A study of Mus musculus with 2 samples.

Results

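Sox genes encode transcription factors that bind DNA through a high-mobility-group (HMG) box. The 7 examined here, Sox2, Sox4, Sox5, Sox6, Sox8, Sox9 and Sox11, were taken by symbol from the 32285 genes of the count tables, and all 7 were found. They were measured in retinal cells of 14-week-old mice on a B6.Cg background that carried the reporter allele Gt(ROSA)26Sortm9(CAG-tdTomato)Hze, from which tdTomato is made once Cre has acted. The cells had been sorted for tdTomato 8 weeks after an adeno-associated virus (AAV) was injected. Single-cell libraries numbered 2, with 1 library per group, labelled Muller and MullerControl. The Muller library was taken as the test virus and MullerControl as the control virus. The labels give neither the cargo or promoter of either virus, nor the source of Cre, nor the number of mice pooled. The sort found tdTomato in about 4.9% of test and 10% of control cells and collected 60000 and 120000, and 27000 were loaded for each library.

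Sox2, a SOXB1 protein, maintains neural progenitors and is kept in adult Müller cells, the radial glia that span the retina. Sox8 and Sox9 are SOXE proteins, and Sox9 serves glial fate in the nervous system and cartilage formation in the skeleton. Sox5 and Sox6, the SOXD proteins, lack a transactivation domain of their own and act beside SOXE proteins in cartilage. Sox4 and Sox11, the SOXC proteins, act in developing neurons, including the differentiation of retinal ganglion cells. The series title asks again whether Müller cells turn into retinal ganglion cells in vivo, and the comparison of the libraries bears on the Sox genes in that setting.

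The genes lie on 7 chromosomes (GRCm38, GENCODE gene models). Sox2 is at chr3:34650405-34652461 on the plus strand, inside the same-strand long non-coding gene Sox2ot, with which it could share reads. Sox9 is at chr11:112782224-112787760 on the plus strand and overlaps no annotated gene. Sox8 is at chr17:25565892-25570686 on the minus strand and overlaps the antisense gene 2810468N07Rik, which had 159 UMIs in Muller and 93 in MullerControl cells that were kept. Sox6 (chr7:115470872-116038796), Sox5 (chr6:143828425-144781977), Sox4 (chr13:28948919-28953713) and Sox11 (chr12:27334264-27342574) lie on the minus strand. Sox6os, antisense to Sox6, had 15 and 4 UMIs.

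Promoters are shown for a pair of genes whose transcripts were concentrated in Müller-gate cells, Sox2 and Sox8, and for both SOXC genes, Sox4 and Sox11, whose transcripts were not. Each sequence runs from 250 bases before to 50 bases after the RefSeq start of the gene, in GRCm38.p6, on the gene's own strand. Capitals mark CCAAT, or ATTGG for the reverse strand. The windows are chr3:34649745-34650044 (plus, upstream of the GENCODE start of Sox2), chr17:25570637-25570936 (minus), chr13:28953650-28953949 (minus) and chr12:27342669-27342968 (minus).
Sox2: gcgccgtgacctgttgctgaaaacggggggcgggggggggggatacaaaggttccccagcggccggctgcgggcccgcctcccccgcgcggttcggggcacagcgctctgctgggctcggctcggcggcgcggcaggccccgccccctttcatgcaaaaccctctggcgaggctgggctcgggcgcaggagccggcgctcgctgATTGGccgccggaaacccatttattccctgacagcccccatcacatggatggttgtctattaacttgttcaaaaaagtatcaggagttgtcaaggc
Sox8: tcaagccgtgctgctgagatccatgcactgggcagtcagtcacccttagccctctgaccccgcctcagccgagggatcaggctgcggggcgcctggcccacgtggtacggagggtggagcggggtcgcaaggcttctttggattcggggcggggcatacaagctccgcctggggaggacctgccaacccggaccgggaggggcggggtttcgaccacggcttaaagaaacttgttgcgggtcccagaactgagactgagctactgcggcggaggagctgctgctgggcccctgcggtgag
Sox4: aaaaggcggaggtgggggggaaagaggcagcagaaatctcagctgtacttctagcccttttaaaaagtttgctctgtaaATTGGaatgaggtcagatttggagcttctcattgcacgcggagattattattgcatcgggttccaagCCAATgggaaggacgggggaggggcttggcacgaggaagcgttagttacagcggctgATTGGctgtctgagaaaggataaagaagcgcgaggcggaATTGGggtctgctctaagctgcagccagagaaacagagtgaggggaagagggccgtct
Sox11: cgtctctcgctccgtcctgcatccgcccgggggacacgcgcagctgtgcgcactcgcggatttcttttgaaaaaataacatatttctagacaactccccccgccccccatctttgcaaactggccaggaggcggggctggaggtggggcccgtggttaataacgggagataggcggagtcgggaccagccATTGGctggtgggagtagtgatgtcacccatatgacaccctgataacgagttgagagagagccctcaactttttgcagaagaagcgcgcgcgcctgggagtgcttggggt
CCAAT occurred 4 times in the Sox4 window, once each in those of Sox2 and Sox11 and 0 times in that of Sox8, counted on both strands. Of the 32851 promoters of this length, 37.4% hold it. The GC box GGGCGG occurred 2 times each in Sox2, Sox8 and Sox11 and 0 times in Sox4 (35.7% of promoters hold it). Neither TATAAA (13.6% of promoters) nor the SOX core ACAAT (31.0%) was in any of the 4 windows. The windows of Sox2, Sox8 and Sox11 held 27, 21 and 21 CpG and that of Sox4 held 12, against a median of 7.

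The libraries held 12316 and 11309 barcodes with 25622379 and 23549118 unique molecular identifiers (UMIs, counted transcript molecules), and 10757 and 9538 cells were kept. Cells were placed in classes by marker genes, with no Sox gene among them. The Müller gate held 1126 cells (10.5% of kept cells) in Muller and 646 (6.77%) in MullerControl, and the rod gate 4469 (41.5%) and 6495 (68.1%), so most sorted cells did not carry a Müller profile. The bipolar gate held 3034 and 888 cells, amacrine 547 and 142, cone 347 and 848, and microglia 107 and 162. In the ungated rest were 1055 and 333 cells. The libraries shared 40 barcodes, of which 30 were kept in both. Levels are UMIs summed over a class per 1000000 of its UMIs (CPM), with 95% Poisson intervals in parentheses. Intervals cover counting error only, and with 1 library per group no difference between libraries has a replicate check, so no p-value was computed. UMIs count molecules by their 3' ends, and levels were not scaled by gene length, so each gene was compared with itself across classes.

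Sox2, Sox8 and Sox9 were concentrated in Müller-gate cells. Sox2 stood at 623 CPM (590 to 657) in the Muller library and 615 (578 to 653) in MullerControl. These sums rest on 1335 and 1064 UMIs and are 87.4% and 94.5% of all Sox2 UMIs in kept cells. Sox2 did not exceed 12.6 CPM in the bipolar, amacrine, cone, rod or microglia gates. Sox8 was at 258 CPM (237 to 280) and 205 (184 to 228), with 90.0% and 95.9% of its kept UMIs in this gate. Sox9 was at 393 CPM (367 to 421) and 408 (378 to 439), but with a smaller part of its kept UMIs there, 66.6% and 82.3%. The next class for Sox9 was bipolar, as described further on.

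The SOXD and SOXC genes were present in Müller-gate cells but not restricted to them. Sox6 stood at 111 CPM (97.4 to 126) and 106 (91.0 to 122), which is 12.8% and 27.6% of its kept UMIs. Sox5 was at 53.7 (44.3 to 64.4) and 51.4 (41.3 to 63.3), and Sox4 at 52.3 (43.0 to 62.9) and 48.0 (38.2 to 59.5). Of the 112 Sox4 UMIs in Muller, 11 came from 1 cell. Sox11 had 6 UMIs in 1126 cells and 1 UMI in 646. Markers of bipolar cells, the class with the most Sox6, had a median of 5.84 UMIs per 10000 in Müller-gate cells of Muller and 0 in MullerControl, against the bipolar gate's minimum of 50.

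**Figure D1:**
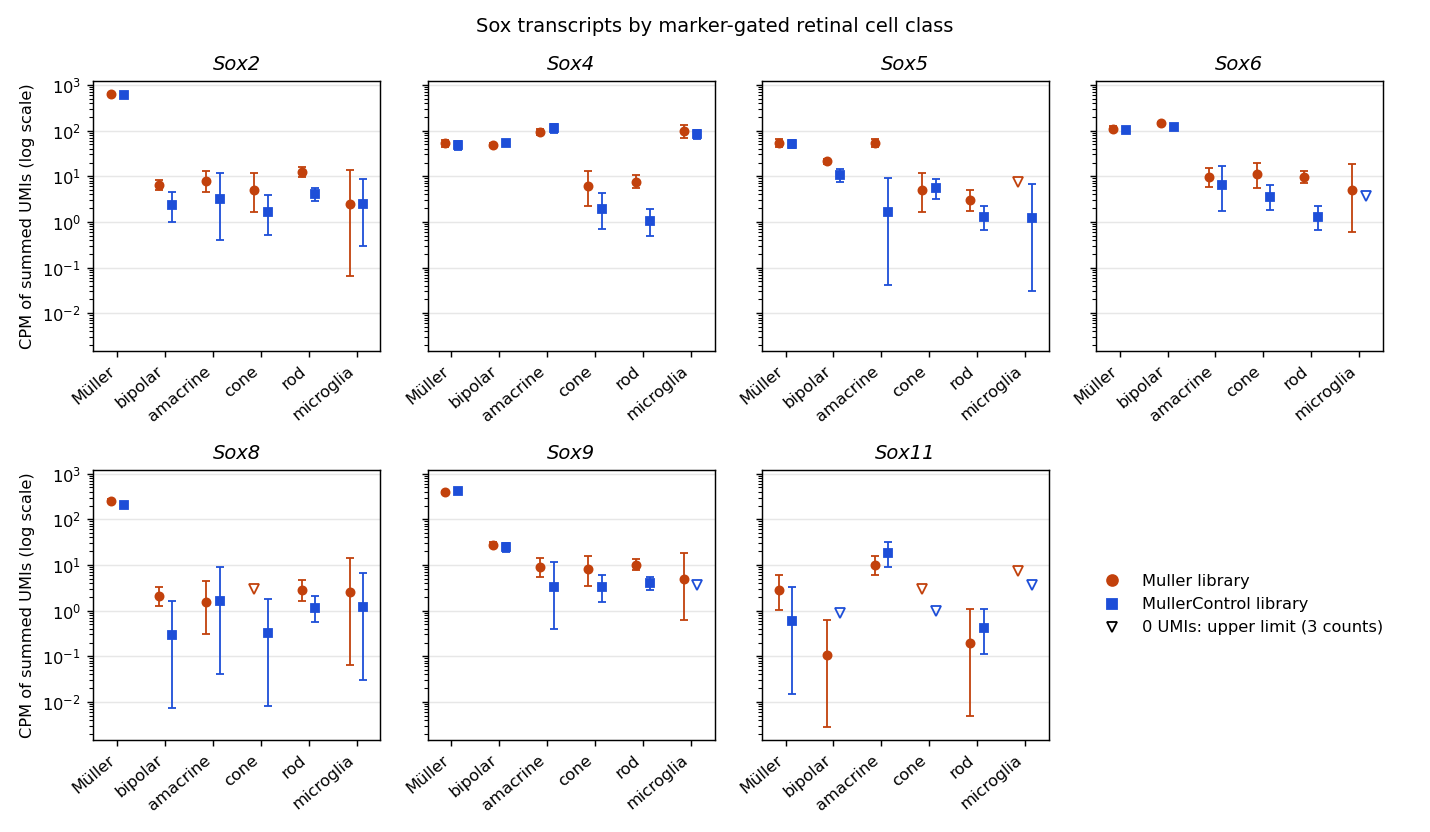
Level of each Sox gene (CPM of summed UMIs, log axis) in 6 marker-gated classes, with points for the 2 libraries, 95% Poisson bars, and open triangles for the upper limit where 0 UMIs were counted. Sox2 and Sox8 stand far above every other class in the Müller gate, Sox6 is highest in bipolar and Müller gates, and Sox4 is within 48.0 to 112 CPM in all classes except cones and rods.

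In the Müller gate as a whole, the libraries were close for 5 of the 6 measured Sox genes, those with at least 20 UMIs over both. The log2 ratio, Muller over MullerControl with 1 count added, was 0.02 (-0.10 to 0.14) for Sox2 and -0.05 (-0.20 to 0.09) for Sox9. Sox6, Sox5 and Sox4 had ratios of 0.07, 0.06 and 0.12, and their intervals, like those of Sox2 and Sox9, included 0. Sox8 was the exception at 0.33 (0.14 to 0.52), whose counting interval excluded 0. None of the 6 was past 1.5-fold, the size called here, while 13.9% of the 11174 genes measured in the gate were (7.67% higher and 6.24% lower in Muller). The median over the 6 was 0.06 and over all measured genes -0.03.

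Sox8's difference varied with cell depth. In cells under 1000 UMIs it was at 107 and 105 CPM, and at 3000 UMIs or more at 273 and 233. Between 1000 and 3000 UMIs it was at 289 CPM (255 to 326) and 144 (106 to 191), a ratio of 2.01 (1.47 to 2.79) from 259 and 48 UMIs. Sox2 also differed most in those cells, 539 against 366 CPM, while Sox9 stood at 351 and 309. The cells of the gate differed in depth between libraries, with median UMIs of 1433.5 and 1811, and the part of depth in the Sox8 difference was not tested.

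Sox transcripts also varied with the share of Malat1, a long non-coding RNA of the nucleus, among a cell's UMIs. The median Malat1 share in the Müller gate was 12.6% in Muller and 8.83% in MullerControl. Sox8 was at 293 CPM in Muller cells with at least 5% Malat1 and 68.3 in those below, a ratio of 4.29 (2.83 to 6.82). In MullerControl the values were 233 and 49.5 CPM, a ratio of 4.71 (2.72 to 8.94). Sox9 was higher in the same cells of both libraries by ratios of 2.03 (1.59 to 2.62) and 2.57 (1.90 to 3.54), Sox6 by 2.42 and 1.87, and Sox2 by 1.45 (1.22 to 1.73) and 1.91 (1.54 to 2.40). Sox2ot, the non-coding gene around Sox2, was higher there by 4.13 and 3.33. For Sox5 the ratios were 1.46 (0.818 to 2.84), an interval that included 1, and 2.48 (1.09 to 6.94). For Sox4 they were 2.80 (1.31 to 7.13) and 14.7, the last on 82 and 1 UMIs. The part of cell depth in these ratios was not tested.

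Rlbp1 and Glul, markers used by the gate itself, differed from the Sox genes in this split. Rlbp1, which encodes the retinaldehyde-binding protein of Müller cells, had ratios of 0.590 and 0.742, and Glul, which encodes glutamine synthetase, 0.759 and 1.02. Within Malat1 ranges, the library log2 ratio of Sox8 was 0.42 (-0.53 to 1.37) under 5%, 0.20 (-0.07 to 0.48) from 5 to 15% and 0.38 (0.07 to 0.70) from 15%. Sox8 was therefore higher in Muller at each of these 3 ranges, with an interval that excluded 0 only at the highest. For Sox2 the 5 to 15% range gave 0.14 and the range from 15% gave -0.10.

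**Figure D2:**
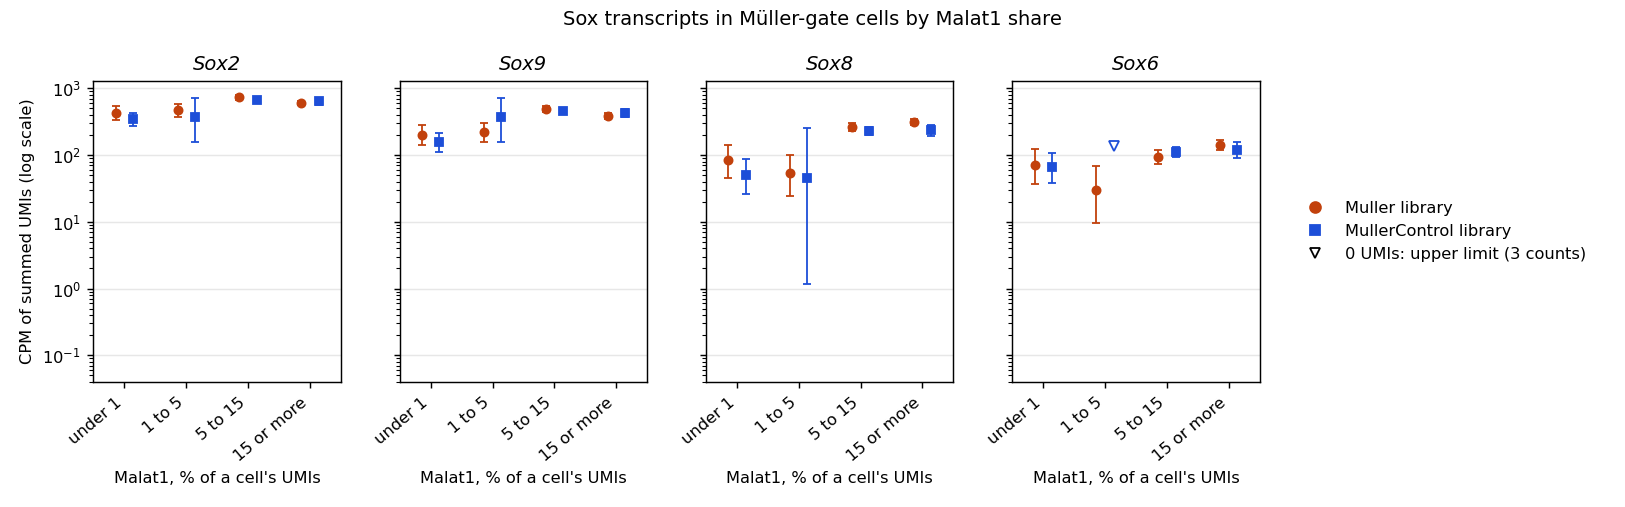
Sox2, Sox9, Sox8 and Sox6 (CPM, log axis) in Müller-gate cells split by the percent of a cell's UMIs that came from Malat1, with 95% Poisson bars and an open triangle for the upper limit of 0 UMIs. Sox8 is at 83.1 and 49.8 CPM under 1% and at 311 and 237 CPM at 15% or more, and the 1 to 5% range holds 25 MullerControl cells.

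Detection per cell was read after each cell was thinned to 1000 UMIs, which left 714 and 446 Müller-gate cells and left out 412 and 200. Sox2 was detected in 43.3% and 40.1% of them, Sox9 in 29.6% and 30.7%, and Sox8 in 24.1% and 17.7%. In rod-gate cells, which serve as the background of free RNA, Sox2 was detected in 0.748% and 0.430%. The median depths before thinning were 1433.5 and 1811 UMIs in the Müller and 949 and 1352 in the rod gate. At least 1 of Sox2, Sox8 and Sox9 was detected in 66.9% and 63.9% of the Müller-gate cells, against 1.82% and 0.861% of rod-gate cells, and all 3 in 27 (3.78%) and 9 (2.02%) cells. Unthinned, a Sox2 UMI was found in 553 of 1126 and 350 of 646 cells, or 49.1% and 54.2%, and single cells held up to 12 and 15 Sox2 UMIs.

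Detection of Sox9 was slightly more frequent in cells with Sox2 or Sox8 than in cells without. Sox9 was detected in 33.3% of Sox2-positive and 26.7% of Sox2-negative thinned cells in Muller, and in 33.0% and 29.2% in MullerControl. Given Sox8, Sox9 was detected in 32.6% against 28.6%, and in 34.2% against 29.97%. Sox2 and Sox9 were both found in 103 and 59 cells, where independent detection would give 91.3 and 55.0. For Sox8 and Sox9 these were 56 and 27 cells against 50.8 and 24.3. Sox6 went the other way. It was detected in 10.4% of Sox9-positive and 11.9% of Sox9-negative cells in Muller, and in 9.49% and 10.4% in MullerControl. Cells of 1 library are not replicates, and these shares are descriptions of the libraries.

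Bipolar cells, the interneurons that carry photoreceptor signals inward, held most Sox6. Sox6 was at 150 CPM (142 to 158) in Muller and 123 (112 to 135) in MullerControl, 74.2% and 63.3% of its kept UMIs. That was above the Müller-gate level in Muller, and in MullerControl the intervals of the 2 classes overlapped. Sox4 was at 49.3 (44.8 to 54.0) and 53.5 (46.0 to 61.8), a level that overlapped with the Müller gate in both libraries. Sox9 was at 27.7 (24.4 to 31.3) and 24.4 (19.4 to 30.2). Sox2 reached 6.54 and 2.35 CPM and was detected in 0.804% and 0.478% of thinned cells, near the rod-gate shares.

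Sox9 in the bipolar gate was not at the ratio to Sox2 seen in Müller cells. UMIs of Sox9 per UMI of Sox2 were 0.631 and 0.664 in the Müller gate, 0.803 and 0.974 in the rod gate, and 4.23 and 10.4 in the bipolar gate. The Sox9 level was 7.04% and 5.98% of the Müller-gate level, while Rlbp1 was at 1.58% and 0.586%. The part of Müller RNA in the bipolar Sox9 was not tested.

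Bipolar-gate cells were divided by type markers, each cell counted once where it had markers of 1 type only. Sox6 was highest in cells with Kcng4 or Htr3a, markers of type 5 ON cone bipolar cells. It stood there at 377 CPM (343 to 413) in 333 Muller cells and 425 (369 to 488) in 114 MullerControl cells. At least 2 Sox6 UMIs were counted in 123 and 58 of these cells, and up to 8 in 1 cell. In cells with rod bipolar markers (Prkca, Sebox or Vstm2b) it was at 25.0 CPM (18.8 to 32.6) and 2.72 (0.330 to 9.83). Among the marked types, the level in both libraries was highest in type 5 cells and next in OFF cells, and the intervals of type 5 and OFF cells did not overlap. Cells with no type marker, 638 and 169 in number, had Sox6 at 344 CPM (313 to 377) and 276 (227 to 331). That was above OFF cells in both libraries, and in Muller its interval overlapped that of type 5 cells.

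OFF bipolar cells, marked by Grik1, Tacr3 or Slitrk6, carried 3 Sox genes. In 328 and 146 such cells Sox9 was at 144 CPM (119 to 172) and 125 (96.6 to 158), Sox4 at 131 (108 to 159) and 100 (75.5 to 131), and Sox6 at 164 (138 to 194) and 130 (102 to 165). Within them, Slitrk6-positive cells had 161 and 158 CPM of Sox9, and Tacr3-positive cells, 8 and 14 in number, had 0 Sox9 UMIs. Sox5 marked a different type. In cells with Igfn1, a marker of a type 7 ON bipolar cell, it was at 185 CPM (138 to 243) in 80 Muller cells and 269 (157 to 431) in 16 MullerControl cells.

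**Figure D3:**
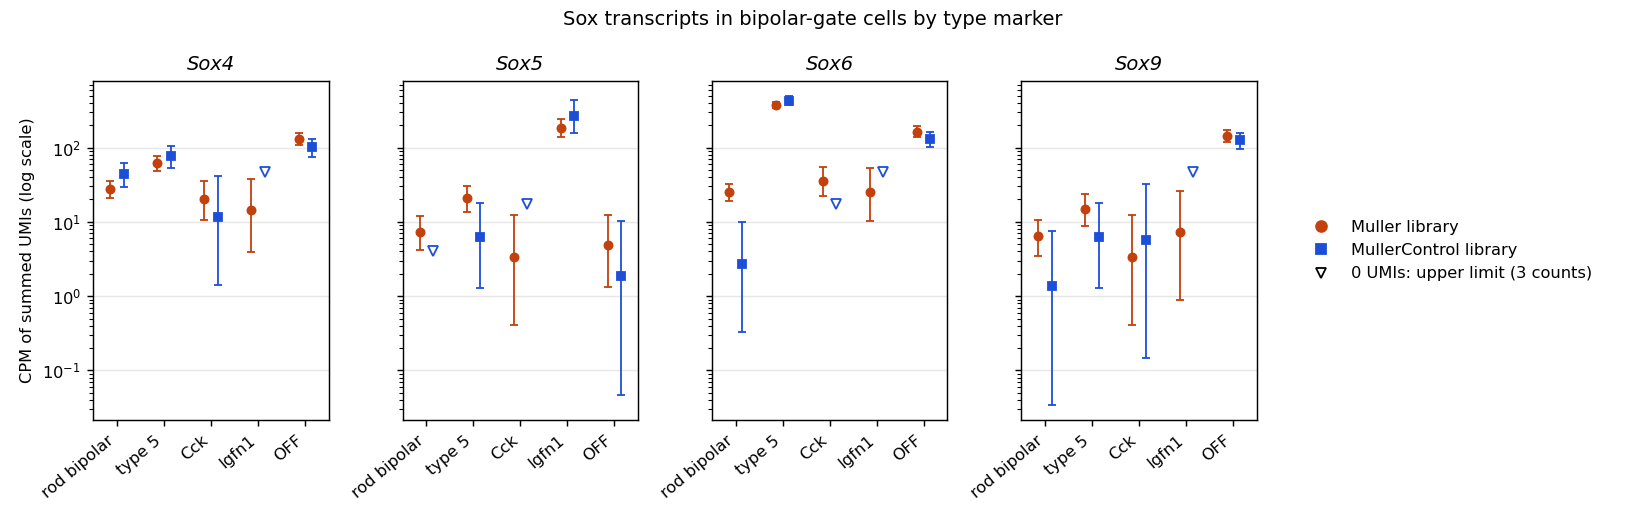
Sox4, Sox5, Sox6 and Sox9 (CPM, log axis) in bipolar-gate cells with markers of 1 type only, with 95% Poisson bars and open triangles for the upper limit of 0 UMIs. Type 5 cells have the highest Sox6 (377 and 425 CPM), Igfn1 cells the highest Sox5 (185 and 269 CPM), and OFF cells the highest Sox9 (144 and 125 CPM).

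The Sox genes also differed between clusters of bipolar cells that were made without any Sox gene. A cluster with Fn1, Cntn5 and Kcng4 among its leading genes had Sox6 at 506 CPM (454 to 563) and 555 (463 to 659), and one with Htr3a, Cdh9 and Kcng4 among them 412 (385 to 440) and 377 (328 to 430). A cluster led by Areg, Tmem200a and Slitrk5, had Sox6 at 9.18 and 14.5 CPM but Sox4 at 77.4 and 104. The OFF cluster led by Grik1 and Slitrk6 had Sox9 at 181 (157 to 207) and 168 (133 to 208), and the OFF cluster with Tacr3 and Erbb4 had it at 32.7 (14.1 to 64.5) and 9.97 (2.06 to 29.1). In the rod bipolar cluster led by Sebox and Car8, Sox4 was at 6.37 and 1.21 CPM and Sox6 at 4.24 CPM and 0 UMIs. The Igfn1 cluster had Sox5 at 190 (160 to 224) and 173 (111 to 257).

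Between libraries, the bipolar gate as a whole had 3 of 6 measured Sox genes higher in Muller by 1.5-fold and 0 lower, where 4.22% of 12329 genes were higher and 6.99% lower (11.2% in either direction). These were Sox5 with a log2 ratio of 0.97 (0.46 to 1.47), Sox2 with 1.33 (0.32 to 2.34) and Sox8 with 1.89 (-0.21 to 3.99). Sox2 and Sox8 rest on 60 and 19 Muller and 8 and 1 MullerControl UMIs, and Sox8 reached the 20 UMIs required through Muller. The part of free Müller RNA in these 2 ratios was not tested. For Sox5, the Igfn1 cluster held 206 Muller and 33 MullerControl cells. Within it the plain ratio of CPM, not on the log2 scale, was 1.10 (0.711 to 1.78). Sox5 was higher in Muller in type 5 cells, at 20.7 and 6.17 CPM on 25 and 3 UMIs (plain ratio 3.35, 1.02 to 17.3). It had 16 and 0 UMIs in cells with rod bipolar markers. As a mean over cells, the log2 ratio of Sox5 over the gate was 0.58, just under 1.5-fold. Sox6 had a log2 ratio of 0.29 (0.13 to 0.44) over the gate, and its ratio differed between subsets of the gate. It was -0.18 (-0.42 to 0.06) in type 5 cells, 0.32 (-0.09 to 0.74) in OFF cells and 0.31 (0.02 to 0.61) in cells with no type marker. In cells with rod bipolar markers it was 2.64 (0.97 to 4.32), on 55 and 2 UMIs. In cells with markers of more than 1 type it was 1.71 (1.14 to 2.28), on 250 and 26 UMIs. Cells with the type marker Cck had 21 and 0 Sox6 UMIs, and those with Igfn1 7 and 0.

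Amacrine cells, the inhibitory interneurons of the inner retina, carried Sox4 and Sox11, though neither was restricted to them. Sox4 was at 92.0 CPM (79.1 to 106) and 112 (87.1 to 142), with a log2 ratio of -0.30 (-0.69 to 0.10). That was above the levels of the Müller gate and of the bipolar gate as a whole, but not above OFF bipolar cells in Muller (131 CPM, 108 to 159). Sox11 was at 10.1 CPM (6.14 to 15.5) and 17.8 (8.91 to 31.9), on 20 and 11 UMIs, which is 43.5% and 52.4% of its kept UMIs. Another 39.1% and 23.8% lay in kept cells outside all the classes reported here. In glycinergic cells (Slc6a9 without Gad1 or Gad2) Sox11 was at 20.6 and 28.0 CPM, on 11 and 7 UMIs. The cluster led by Nhlh2, Ebf1 and Ebf3 had Sox11 at 16.9 (11.4 to 24.3) and 18.9 (10.4 to 31.8). Sox2 is known from starburst amacrine cells, the cholinergic type. Their marker Chat had 0 UMIs in the amacrine gate of both libraries, which alone cannot show that the type was absent. Over the whole gate, Sox2 was at 8.04 and 3.24 CPM.

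Sox5 in amacrine-gate cells was nearly all in 1 library. It stood at 53.3 CPM (43.6 to 64.4) in Muller, from 106 UMIs in 61 of 547 cells, and at 1.62 CPM (0.0411 to 9.04) in MullerControl, from 1 UMI in 142 cells. The log2 ratio was 4.05 (2.03 to 6.07). In Muller most Sox5 UMIs, 85 of 106, came from GABAergic cells (Gad1 or Gad2 without Slc6a9), at 98.7 CPM (78.8 to 122) against 1.87 in glycinergic cells. The cluster led by Nhlh2, Ebf1 and Ebf3, with Slc6a9 among its leading genes, had Sox5 at 22.2 CPM (15.7 to 30.5) in Muller and 10.8 (4.67 to 21.3) in MullerControl, on 38 and 8 UMIs. GABAergic cells numbered 233 in Muller and 16 in MullerControl, so the make-up of the gate differed between libraries. Within them Sox5 was at 98.7 and 14.5 CPM, on 85 and 1 UMIs, a plain ratio, not log2, of 6.80 (1.19 to 272). In the GABAergic cluster led by Gad1 and C1ql2, with 344 and 18 cells, it was at 90.5 (73.8 to 110) and 20.7 (2.50 to 74.7), on 102 and 2 UMIs, and over all amacrine-like clusters the log2 ratio was 1.92. Over the gate, 2 of 5 measured Sox genes were higher by 1.5-fold (Sox5 and Sox9) and 1 lower (Sox11), against 8.33% and 13.6% of 10565 genes (22.0% in either direction). Sox9 reached the 20 UMIs required through Muller, with 18 and 2 UMIs, and its log2 ratio of 0.97 (-0.78 to 2.73) turned to -0.22 with clusters in place of gates. Sox11's ratio of -0.88 (-1.91 to 0.14) became -0.46, within 1.5-fold.

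**Figure D4:**
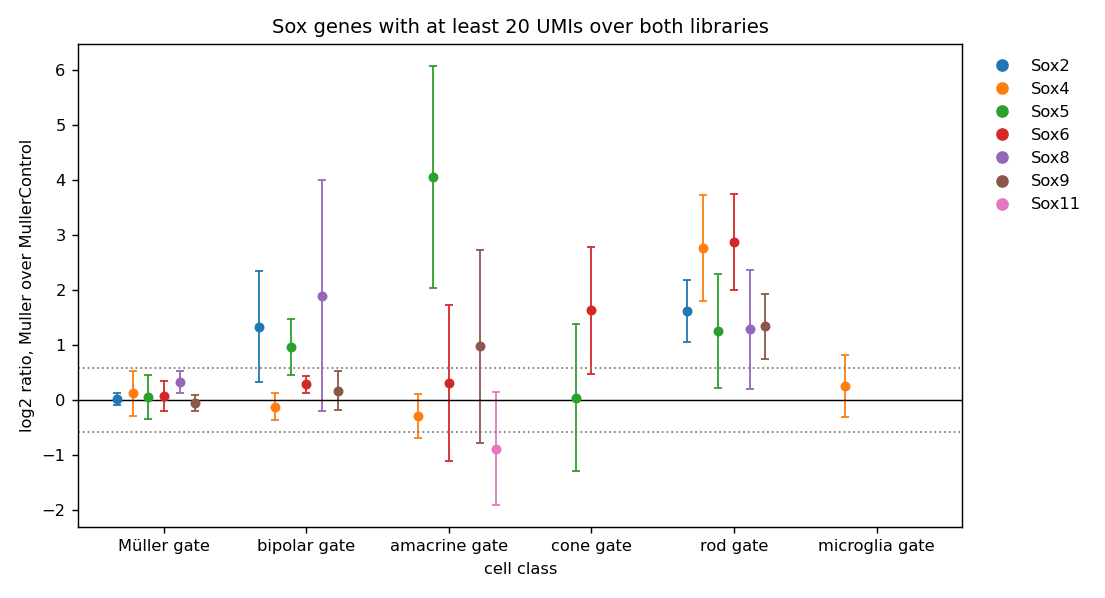
Log2 ratio, Muller over MullerControl, of each Sox gene with at least 20 UMIs over both libraries, by class, with counting intervals and dotted lines at 1.5-fold. The 6 Müller-gate genes lie between -0.05 and 0.33, Sox5 in the amacrine gate reaches 4.05, and all 6 measured genes of the rod gate lie above the upper line.

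Microglia, the resident macrophages, carried Sox4 alone among the members. It stood at 98.1 CPM (69.7 to 134) and 83.2 (64.7 to 105), on 39 and 69 UMIs, a level whose interval overlapped that of amacrine cells in both libraries. Its log2 ratio was 0.25 (-0.31 to 0.81), not past 1.5-fold, as 19.6% of 6480 genes were (11.9% higher and 7.75% lower). Each other member had at most 2 UMIs in a library there.

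Rods and cones had little of any member. In rods the highest was Sox2, at 12.6 CPM (9.75 to 16.0) in Muller and 4.08 (2.90 to 5.58) in MullerControl, which is 2.02% and 0.664% of the Müller-gate level. All 6 measured members were higher in Muller rods by 1.5-fold, where 14.6% of 11515 genes were and 2.28% were lower (16.8% in either direction), and the ratios ran from 1.25 for Sox5 to 2.87 for Sox6 on the log2 scale. The Müller marker Rlbp1 moved the same way in rods, at 4.04% and 1.12% of its Müller-gate level, and the part of free Müller or bipolar RNA in these ratios was not tested. In cones, 1 of 2 measured members (Sox6, on 11 and 11 UMIs) was higher in Muller, and 0 were lower, against 6.55% and 7.89% of 9928 genes (14.4% in either direction).

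Genes with the most similar pattern over the 12 sums of class and library were found by Pearson correlation of log2(CPM + 10) among 12755 genes. The 12 sums share libraries and depths. Sox2 and Sox8 were high only in the Müller-gate sums, so any gene concentrated in that gate has an r near 1 with them. Their r values therefore do not show a closer likeness than that. For Sox2 these were Folh1, Gm973 and Fbxo2 (r at least 0.998), and for Sox8 Osmr, Ccn1 and BC051408 (r at least 0.998). Sox9 was nearest to the cell-cycle inhibitor gene Cdkn1b (r = 0.99), then Adamtsl1 and Plpp3. Among the genes nearest to Sox6 were the metallothionein gene Mt2 (r = 0.98) and Adamts5 (r = 0.97). Sox4 was nearest to Igsf8, Zeb2 and Dgkz, and Sox5 to Smoc1, Rai2 and Twf1. Among the members, Sox2 and Sox8 had r = 0.99, Sox8 and Sox9 0.95, and Sox2 and Sox4 0.13.

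Other genes of the Sox network were read from lists in the Müller gate. Of 14 Müller transcription factor genes, 14 were measured and 0 were past 1.5-fold, with a median log2 ratio of -0.15. Hes1, a Notch effector, was at 303 and 387 CPM (-0.35), Lhx2 at 412 and 512 (-0.31), Nfib at 344 and 414 (-0.27) and Rax at 505 and 601 (-0.25). Of 10 cartilage matrix genes that SOX9, SOX5 and SOX6 drive in chondrocytes, 6 were measured and 0 were past 1.5-fold. Col2a1, the type II collagen gene, stood at 233 and 247 CPM and Col9a1 at 394 and 399, while Acan, Hapln1, Matn1 and Comp had 0 UMIs. Among those measured, Col11a1 had the largest ratio, 0.55, on 37 and 20 UMIs, then Col9a2 with -0.28.

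Of 3 SOXC target genes, Tead2 was measured, at 30.8 and 32.9 CPM (-0.10). The neuronal tubulin gene Tubb3 had 14 and 1 UMIs, under the 20 required, and Dcx had 0. Of 9 progenitor genes, 5 were measured and 1 was lower by 1.5-fold, where 6.24% of all measured genes were. This was the intermediate filament gene Nes, on 12 and 15 UMIs (log2 ratio -0.61, with an interval that included 0). Hes5, a Notch effector, was at 244 CPM (223 to 265) and 348 (321 to 377), a log2 ratio of -0.52, and the proliferation genes Mki67 and Top2a had 0 UMIs. Sox2ot stood at 75.6 and 90.7 CPM (-0.26). The lists' medians against -0.03 for all measured genes were -0.03 for the cartilage and -0.21 for the progenitor genes.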

How the data were processed

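The deposited matrices hold raw UMI counts per gene and barcode. Per the file headers they came from Cell Ranger 4.0.0. Seurat 4.0.5 and the builds mm10 and GRCh38 appear, without roles, per the submitters' processing notes, and further parameters are not given in the sources used here. Per the labels' protocols, both a 3' v3.1 kit and a v2 protocol are named. Every deposited barcode had at least 500 UMIs, with medians of 1478 and 1552 in 2 libraries.

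Barcodes under 300 genes or above 20% mitochondrial UMIs, 429 and 905, were left out. Scrublet (scanpy 1.11.5) called 2 and 0 doublets by its automatic threshold and had not worked, so the highest-scoring barcodes, 0.8% per 1000, were removed (1130 and 866). A class gate needed at least 3 markers and a minimum of marker UMIs per 10000: 50 for Müller and bipolar, 15 amacrine, 100 cone and microglia, 200 rod. Minima were set after seeing marker-share histograms, without looking at Sox genes. Within 20% of the Müller minimum lay 104 and 24 cells. Cells in more than 1 gate (59 and 16) were left out.

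UMIs were summed per class and library, with exact Poisson intervals, and log2 ratios had 1 count added. A gene was measured with 20 UMIs over both libraries and called past 1.5-fold, and a count of 0 was given an upper limit of 3 counts. Shares used cells thinned to 1000 UMIs. The ratio code was tested on simulated data. Leiden clustering without Sox genes (leidenalg 0.10.2, 23 clusters) was the alternative to gates. It held at least 95.3% of the gated cells of each class in clusters of that name, except amacrine (80.1% and 76.1%). The code ran on Python 3.11.15 with pandas 2.3.3, scipy 1.17.1 and numpy 2.4.6. The named genes were the members, the 3 genes most like each member with at least 100 UMIs, and up to 4 genes per list with the largest ratios, and 1 gene that this rule names is not reported here. The Mki67, Top2a, Acan, Hapln1, Matn1, Comp, Tubb3 and Dcx values, and the genes leading clusters, were named outside that rule after their values were seen. Members and lists were chosen with earlier results of these data known.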

Additional observations from a re-analysis of the deposited data

Results flagged for a closer look

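Some Sox signal lay in barcodes that the class comparisons do not use and was higher in the Muller than in the MullerControl library, beyond counting intervals. In the 1130 and 866 barcodes removed as likely doublets, Sox2 was at 78.3 CPM (68.7 to 88.9) in Muller and 55.6 (47.0 to 65.4) in MullerControl. Sox6 was at 79.9 CPM there against 40.5, and Sox4 at 56.9 against 20.1. Sox5 was at 18.8 CPM in the removed Muller barcodes against 7.57 in MullerControl. Sox8, at 29.0 and 23.1 CPM, and Sox9, at 58.6 and 53.7, had overlapping intervals there. Over all kept cells Sox2 was at 68.9 and 56.3 CPM, Sox4 at 47.0 and 24.1, Sox5 at 22.4 and 8.25 and Sox6 at 83.8 and 33.1, so these differences were not particular to the removed barcodes. In the kept cells of no gate, 1055 and 333 in number, Sox5 was at 29.5 CPM (22.4 to 38.0) in Muller and 9.38 (3.77 to 19.3) in MullerControl. The cell types in these barcodes were not compared between libraries, and none of these differences was tested.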

How the results depend on the processing

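No paired analysis was possible because each group has 1 library, and for the same reason no replicate could be left out. Among the members measured in a gate, 1 called ratio reversed under the alternatives run: Sox9 in amacrine cells became -0.22 with clusters in place of gates. The number of Sox genes higher in Muller in the amacrine gate was 1 at 10% mitochondrial UMIs and at a minimum of 50 UMIs. The number lower was 0 with clusters, with 1 more marker per gate and at 50 UMIs. In cones the number higher was 2 with no doublet filter and 0 at 50 UMIs. The minimum of 50 UMIs also lowered the numbers higher in the bipolar and rod gates. It left out Sox8 in bipolar cells (19 and 1 UMIs), and Sox5 (16 and 12) and Sox8 (15 and 11) in rods. Levels moved by more than their counting interval with the denominator and the weighting. Without mitochondrial genes and Malat1 among the UMIs, the Müller-gate levels in Muller and MullerControl were 754 and 713 CPM for Sox2, 312 and 238 for Sox8, and 476 and 473 for Sox9. As a mean over cells they were 528 and 472 for Sox2, 210 and 159 for Sox8, and 314 and 325 for Sox9, and the Sox2 log2 ratio became 0.16. With no doublet filter, Sox2 was at 583 and 570 CPM and Sox9 in Muller at 367. In cells with at least 1000 UMIs, Sox8 in Muller was at 280 CPM and Sox9 at 424. The share of Müller-gate cells with Sox2 was 21.9% and 21.1% at 500 UMIs, 70.1% and 69.8% at 2000 UMIs, and 49.1% and 54.2% without thinning. The Sox8 log2 ratio ran from 0.27 to 0.39 over the alternatives. That of Sox4 in amacrine cells, not called, ran from -0.42 to 0.10, the last with clusters in place of gates. For Sox5 in amacrine cells it ran from 1.92 to 4.74. Bipolar types with cells of mixed markers kept, an alternative chosen after seeing the data, moved 11 of 12 levels. Low counts limit Sox11 (67 UMIs in kept cells of both libraries). The small number of cells, 142, limits every amacrine value in MullerControl.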

Other observations

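Among Sox genes outside the 7 members, Sox12 had the most UMIs in kept cells, 383 and 402, and Sox30 the next most, 82 and 94. In rods and cones the Sox12 level was above that of each of the 7 members in both libraries. Sox12, the third SOXC gene, was spread over classes, at 31.1 CPM (21.2 to 44.2) and 25.7 (20.4 to 32.0) in cones, 24.6 and 29.2 in amacrine cells, 23.5 (19.5 to 28.0) and 21.0 (18.2 to 24.2) in rods, 14.9 (10.2 to 21.1) and 20.2 (14.1 to 28.1) in the Müller gate, and 9.37 and 11.8 in bipolar cells. Sox30 was at 9.16 CPM (6.76 to 12.2) and 7.95 (6.27 to 9.96) in rods, with 58.5% and 80.9% of its kept UMIs there. Sox13 had 18 and 22 kept UMIs, 77.8% and 77.3% of them in the Müller gate. Sox3, the SOXB1 relative of Sox2, had 16 and 15.

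Sox17 and Sox18, both known from vascular endothelium, had 8 and 10 UMIs in 3 cells each of the 5 endothelial-gate cells of MullerControl, and 0 UMIs in Muller, where 0 cells passed that gate. Sox14 had 6 UMIs, all in 2 Muller barcodes removed by their doublet score. Sox1 and Sox21 had 0 UMIs in both libraries.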
